A study of Mus musculus with 44 samples.

Results

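Liver m6A peaks of mice exposed to PCB126 were set directly against those of mice exposed to Aroclor1260, with input-referenced lists compared with each other and IgG-referenced lists with each other. The comparison drew on 22 of the 44 libraries and 4 of the 8 deposited peak lists, which held 8895 of the 17573 peaks and 1290 of the 1512 gene identifiers with a peak. All animals were male C57Bl/6J mice on a high-fat diet (42% kCal from fat) and received a single oral exposure at week 2, with tissue from a study that lasted 12 weeks. One group received PCB126 and the other Aroclor1260. Each group had 5 input libraries, 5 m6A immunoprecipitates and 1 negative IgG immunoprecipitate labelled as pooled for the group, all from liver. Neither age nor dose is stated in the labels, so the comparison is of 2 exposures and not of matched doses. Each list described a whole group and held no value for a single animal. No spread between mice could therefore be measured, and no difference given here has a test across animals. The lists of vehicle-treated mice and of mice given both compounds did not enter the comparison and served only as a separate readout.

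N6-methyladenosine (m6A) is an internal mark of messenger RNA that is placed by a writer complex around METTL3 and METTL14, mostly in a GGAC-like context and often near the stop codon and in the 3′ UTR. Reader proteins of the YTH family bind it and influence splicing, translation and decay of the transcript. PCB126 is a single dioxin-like polychlorinated biphenyl that binds the aryl hydrocarbon receptor and induces genes such as Cyp1a1. Aroclor1260 is an industrial blend of mainly non-dioxin-like biphenyls with many chlorines, many of which act in liver through the constitutive androstane and pregnane X receptors. In the assay used, MeRIP, RNA fragments bound by an m6A antibody are sequenced, and a peak is a stretch where they exceed the reference. The fold enrichment is the authors' ratio of immunoprecipitate over reference for that peak, and in this report a gene's fold is that of its strongest peak in the list.

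The clearest sequence-level contrast was a microRNA host transcript. The hairpin of Mir671, 98 bases at chr5:24592114-24592211 (mm10, plus strand), lay wholly inside a peak of Chpf2, a chondroitin polymerising factor, after PCB126. That peak spanned 24592103 to 24592452 in both PCB126 lists, with a fold of 4.3 against input and 6 against IgG. Chpf2 had 6 peaks in each PCB126 list and 0 in each Aroclor1260 list, as did a minus-strand identifier over the same locus with 2 and 0. The mature microRNAs of that hairpin are shown because the peak covered both arms. Capitals mark the seed, bases 2 to 8, and the sequences are those of RefSeq on GRCm38.p6.
mmu-miR-671-5p: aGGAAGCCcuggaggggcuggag
mmu-miR-671-3p: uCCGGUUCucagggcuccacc
The peak describes the long transcript over the hairpin, and the mature microRNAs were not measured. No peak of either compound covered another hairpin whole. At Glul, glutamine synthetase, 43 of the 111 bases of the Mir8114 hairpin lay in a peak in both Aroclor1260 lists (folds of 1.27 against input and 1.52 against IgG) and in the PCB126 list called against IgG (1.48).

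Peaks at the start of a gene gave a second set of sequences. The RefSeq promoter windows of 300 bases run from 250 bases before the start site to 50 bases past it. At Emilin1, which encodes an elastic fibre glycoprotein, a peak over the start site was listed after PCB126 with both references (1.6 and 3.8) and in neither Aroclor1260 list, although the gene had peaks elsewhere in all 4. At Fmo5, a flavin monooxygenase of liver, both compounds had a peak from 97628904, but the PCB126 peak ended at 97629003 with either reference. The Aroclor1260 peak went on to 97629103 against input and to 97629628 against IgG, and so took in a GGAC that the PCB126 peak did not reach. These Fmo5 peaks were weak, with folds against input and IgG of 1.2 and 1.21 after PCB126 and 1.1 and 1.4 after Aroclor1260. Both Emilin1 motifs lie upstream of its RefSeq start site, 30913786, and so outside the annotated transcript from that site. The Fmo5 stretch spans its RefSeq start site, 97629019. The 30 bases around each GGAC are shown, with the motif in capitals, on the plus strand of GRCm38.p6.
Emilin1, chr5:30913641-30913670: ggaactgagggagGGACagacaggagcctg
Emilin1, chr5:30913742-30913771: ggcaggaagctagGGACagaactggctcgg
Fmo5, chr3:97629005-97629034: ctttctttctttaGGACaagtgacgcagac
The motif was searched as GGAC on the gene's strand in the part of the window that a peak covered. It was found in 1 of 7 such peaks after PCB126 and 1 of 4 after Aroclor1260 against input, and in 4 of 11 and 4 of 8 against IgG. Of all 32851 promoter windows, 65.6% held the motif somewhere in their 300 bases, so a match is common and marks no site. The parts searched in peaks were shorter, from 42 to 198 bases. The 65.6% is therefore no base rate for the counts in peaks, and none was computed for those lengths.

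Far more peaks were listed after PCB126 than after Aroclor1260, and most Aroclor1260 peaks lay inside the PCB126 set. Against input there were 2178 peaks at 724 genes after PCB126 and 506 at 240 after Aroclor1260, a ratio of 4.3 in peaks and 3.02 in genes. Against IgG there were 4129 peaks at 1159 genes and 2082 at 631, a ratio of 1.98 and 1.84. Peaks were counted as shared when their spans, on one chromosome and strand, had 1 bp or more in common. Of the Aroclor1260 peaks, 89.7% (Wilson 95% interval 86.8 to 92.1) were found after PCB126 against input and 77.2% (75.3 to 78.9) against IgG. In the opposite direction the shares were 16.7% (15.2 to 18.3) and 33.7% (32.3 to 35.2). By exonic bases, 90.3% of the Aroclor1260 sequence and 18.9% of the PCB126 sequence were common to both input-referenced lists. These intervals cover counting error only, because a gene often has several adjacent peaks and no animal is represented singly.

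At the level of genes, counted as Ensembl identifiers, 219 had an input-referenced peak after both compounds, 505 after PCB126 alone and 21 after Aroclor1260 alone. These were 14.5%, 33.4% and 1.39% of the 1512 identifiers that had a peak in at least 1 of the 8 lists. Against IgG the counts were 541, 618 and 90, or 35.8%, 40.9% and 5.95%. Requiring the same call with both references left 267 PCB126-only genes (17.7%), 6 Aroclor1260-only genes (0.397%) and 205 genes in all 4 lists (13.6%), while 812 had some other pattern. Because a list grows with sequencing depth, which was unknown, the sizes of these classes were recomputed on lists of equal length. With the PCB126 list shortened to the 506 peaks of lowest p-value, 140 genes were PCB126-only and 152 Aroclor1260-only, and 30.6% of Aroclor1260 peaks were found after PCB126. With the 506 peaks of highest fold the counts were 249 and 84, and 52.6% were found. The difference between the 2 exclusive counts equals the difference in genes between the lists, and an equal number of peaks did not give an equal number of genes. The shortened PCB126 list held 228 genes by p-value and 405 by fold, beside 240 in the Aroclor1260 list, which stayed whole. The order of the exclusive counts was thus turned when peaks were ranked by p-value, and neither count shows an excess for lists matched in genes. Against IgG, equal length gave 326 and 247 genes by p-value and 495 and 191 by fold. The plot of gene classes shows these counts side by side.

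**Figure D1:**
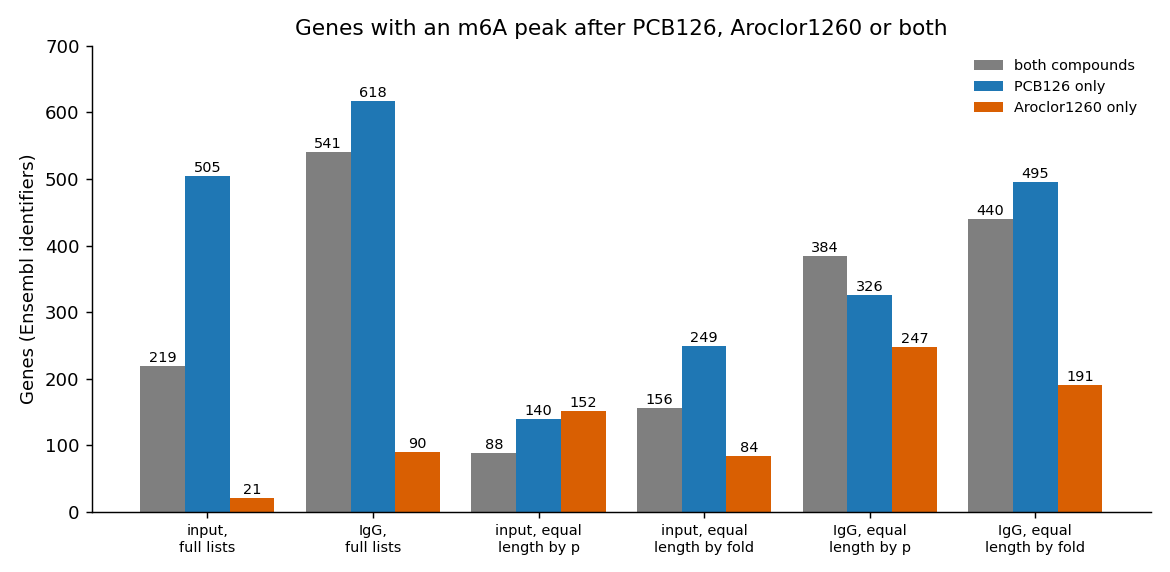
Number of genes (Ensembl identifiers, vertical axis) with an m6A peak after both compounds, PCB126 only or Aroclor1260 only, for the full lists against each reference and for lists of equal length. PCB126-only genes number 505 against 21 Aroclor1260-only genes in the full input-referenced lists, and 140 against 152 when the PCB126 list is shortened by p-value.

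Absence from an input-referenced list was often not absence from the other. Of the 1815 PCB126 peaks not found after Aroclor1260 against input, 34.5% (32.3 to 36.7) overlapped an Aroclor1260 peak called against IgG, and 85.8% overlapped a PCB126 peak called against IgG. Of the 52 Aroclor1260 peaks not found after PCB126 against input, 55.8% (42.3 to 68.4) overlapped a PCB126 peak called against IgG. Peaks called with both references for one compound and with neither for the other numbered 961 of 2178 for PCB126, or 44.1%, and 14 of 506 for Aroclor1260, or 2.77%. Egfr, the epidermal growth factor receptor and a member of a list on receptors, shows the pattern. It had 3 PCB126 peaks up to 23.9 against input and 0 after Aroclor1260, but 7 and 10 peaks against IgG.

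Sharing went with the strength of a peak within its own list. In the PCB126 input list, 6.07% of peaks in the lowest fold quartile were found after Aroclor1260, then 8.99% and 16.5%, and 35% (31.2 to 39.1) in the highest. In the Aroclor1260 input list the shares were 79.4%, 85.8%, 95.2% and 98.4% (94.4 to 99.6). Against IgG the PCB126 shares were 28.9%, 25.7%, 30.8% and 49.5%, with the lowest quartile above the second, and the Aroclor1260 shares ran from 59.4% to 93.1%. Shared PCB126 peaks had a median fold of 4.05 and a median exonic width of 401 bp against input, and PCB126-only peaks had 2.31 and 200 bp. A wider span meets the 1 bp rule more easily, so width is tied to the definition of sharing. Strength did not settle sharing, however. Of the 119 PCB126 input peaks with a fold of at least 10, 59.7% were found after Aroclor1260 and 23 (19.3%) were in neither Aroclor1260 list.

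**Figure D2:**
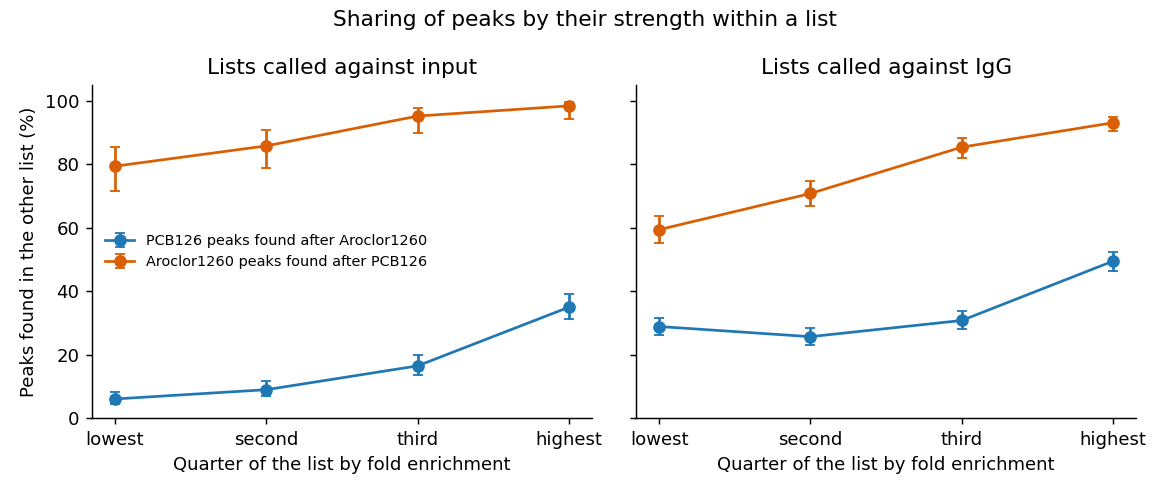
Share of peaks found in the other compound's list (percent, vertical axis) by quartile of fold enrichment within the list (horizontal axis), with Wilson 95% intervals as bars. Against input, sharing rises from 6.07% to 35% for PCB126 peaks and from 79.4% to 98.4% for Aroclor1260 peaks.

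Among the 267 genes with peaks in both PCB126 lists and in neither Aroclor1260 list, folds against input ran from 1.13 to 61.2 with a median of 3.86, and 21 genes reached 10. Pde4b, a phosphodiesterase that degrades cyclic AMP, led with 2 peaks up to 61.2 against input, the strongest at chr4:102605018-102605815, and 2 up to 47.6 against IgG. Ccnt2, a cyclin of P-TEFb, the kinase that releases paused RNA polymerase II, had 35.2 at chr1:127802214-127803863 and 24.8 against IgG. Fem1a, a substrate receptor of a ubiquitin ligase, had 6 peaks in each list, up to 19.5 at chr17:56259330-56259628 and 24.6. These 3 genes had a peak in no list other than those of PCB126, that is, none in vehicle-treated mice or after the combination either.

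Other genes with a high input fold in this class also had a peak in the vehicle or combination lists. Tnfsf10, the death-receptor ligand TRAIL, had 19.3 and 28.6 after PCB126 over chr3:27335368-27335865 against input. It also had 7.29 and 11.8 in vehicle-treated mice and 12.9 and 12.7 after the combination, so Aroclor1260 was the exposure whose lists lacked it. Zfp655, a zinc finger gene (12.4 and 36.8), and Zcchc2 (11.6 and 21.6) also had a peak in every list but those of Aroclor1260. Il1r1, the interleukin-1 receptor, had 15.2 and 19.8, Lifr, which binds leukaemia inhibitory factor, had 12.6 and 12.8, and Myo9b, an unconventional myosin, had 11.4 and 14.5. Each of these 3 had a vehicle peak with at least 1 reference.

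Ctso, a cysteine protease (17.7 and 12.5), Tmem28 (16.7 and 10.6), Wac, a regulator of histone H2B ubiquitination (15.9 and 29.8), and Terf2ip, a telomere protein (13 and 13.8), had no vehicle peak but a combination peak. B230219D22Rik (13.4 and 17.1) had combination peaks and a vehicle peak against IgG only. On lists of equal length these calls depended on the ranking. Of the PCB126-only genes named so far by their fold, only Fem1a kept a place in both PCB126 lists when peaks were ranked by p-value. The 506 input peaks retained there had folds down to 1.09. All of these genes kept a place in both lists when peaks were ranked by fold. In the input list that was fixed by their choice for high input fold, since folds down to 4 were retained there.

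**Figure D3:**
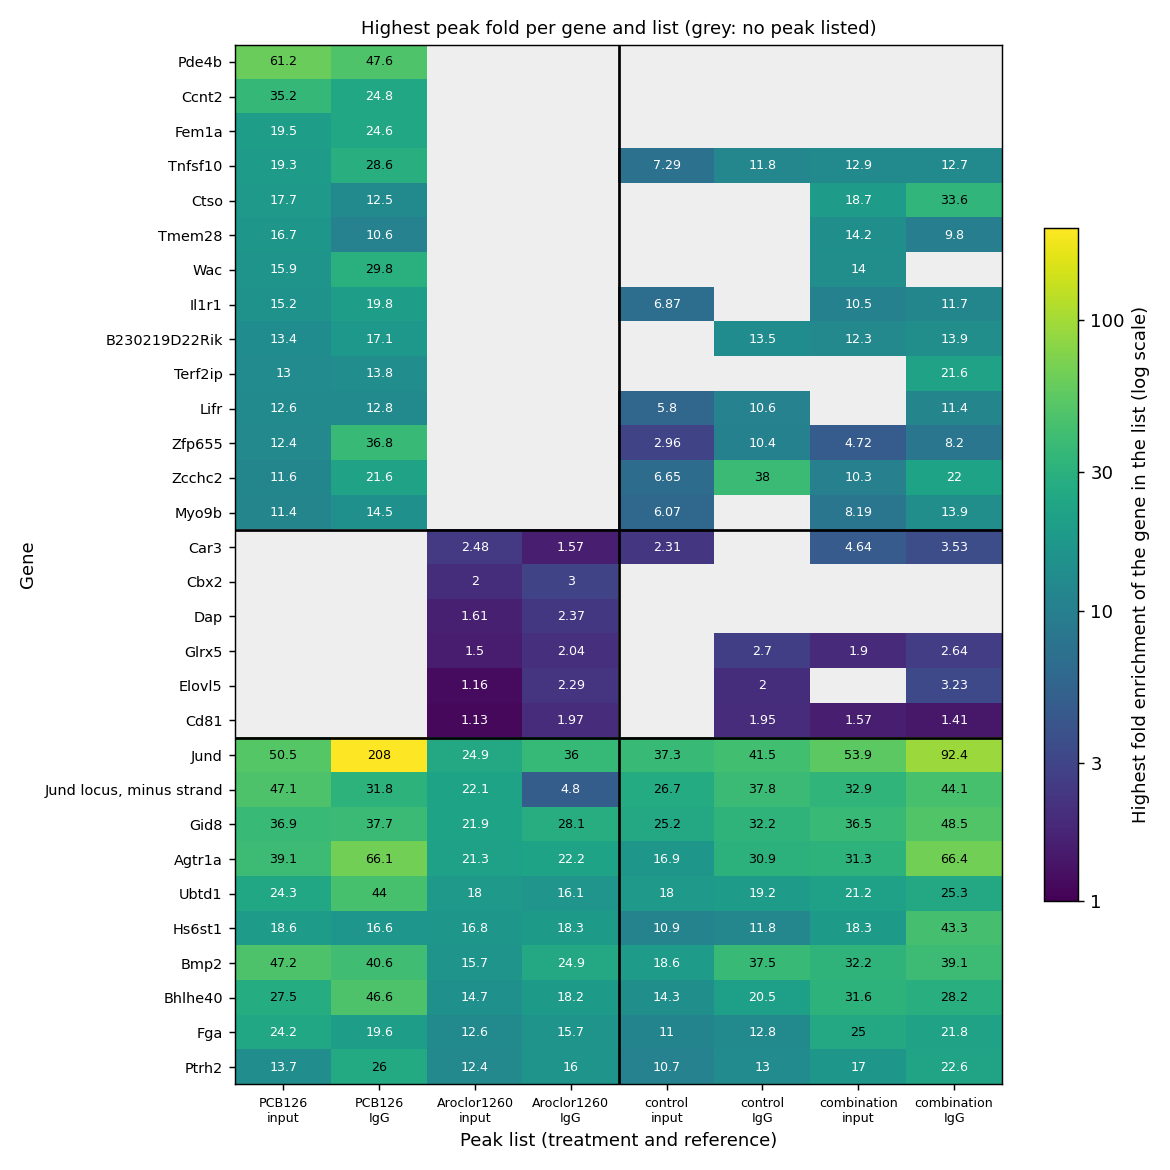
Highest fold enrichment (colour, log scale, with the value printed) of 30 identifiers in each of the 8 peak lists, with rows grouped as PCB126 only, Aroclor1260 only and all 4 lists of the comparison. Grey cells hold no peak. Pde4b, Ccnt2 and Fem1a have values in the PCB126 columns alone, and Cbx2 and Dap in the Aroclor1260 columns alone.

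The 6 genes with peaks in both Aroclor1260 lists and in neither PCB126 list had low folds, from 1.13 to 2.48 against input and from 1.57 to 3 against IgG. Car3, a carbonic anhydrase abundant in liver and fat, had 2.48 at chr3:14871881-14872029 and 1.57. Cbx2, a Polycomb subunit, had 2 and 3, and its strongest peaks in the lists lay at different places, chr11:119028944-119029043 and chr11:119028053-119028152. Dap, death-associated protein, had 1.61 at chr15:31273206-31273552 and 2.37. Glrx5, a mitochondrial glutaredoxin of iron-sulphur cluster assembly, had 1.5 and 2.04. Elovl5, an elongase of polyunsaturated fatty acids, had 1.16 and 2.29, and Cd81, a tetraspanin, had 1.13 and 1.97. Cbx2 and Dap had no peak in the vehicle or combination lists, and the other 4 had peaks in both. With a fold of at least 2 required, 1 gene remained in this class.

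Against input alone, 21 genes were Aroclor1260-only, and 14 of them also had an Aroclor1260 peak and 11 a PCB126 peak when IgG was the reference. Pik3ca, the catalytic subunit of phosphoinositide 3-kinase, had the highest fold, 13.1 at chr3:32462694-32462894. It had no Aroclor1260 peak against IgG, where PCB126 had 4 peaks up to 54. Mbl1, a mannose-binding lectin, had 3 peaks up to 4.08 against input, and against IgG it had folds of 9.8 after Aroclor1260 and 8.5 after PCB126. Tnfrsf1a, the TNF receptor that signals in most cells, had 2.84, with 4.52 and 4.84 against IgG, and Mcl1, an inhibitor of apoptosis, had 2.21, with 5.6 in both. Igfbp1, a secreted binding protein of insulin-like growth factors, had 1.58, with 2.14 and 1.34. Glul, which marks hepatocytes around the central vein, had 1.27, with 2.13 and 1.82. For these 6 genes the exclusive call against input was not repeated against IgG.

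Of the 205 genes with a peak in all 4 lists, the 10 identifiers with the highest lower input fold were strong with either compound. Jund, a subunit of AP-1, had 50.5 after PCB126 and 24.9 after Aroclor1260 against input, and 208 and 36 against IgG, the first being the highest fold of the 4 lists. A minus-strand identifier over the same place had 47.1 and 22.1 against input and 31.8 and 4.8 against IgG, and reads of overlapping transcripts may not be told apart there. Gid8, of the GID ubiquitin ligase, had 36.9 and 21.9, with 37.7 and 28.1 against IgG. Agtr1a, the angiotensin II receptor, had 39.1 and 21.3, with 66.1 and 22.2. Bmp2, a ligand released by liver endothelial cells, had 47.2 and 15.7, with 40.6 and 24.9, and its PCB126 input list held 4 peaks where the Aroclor1260 list held 1.

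Bhlhe40, a repressor in the circadian clock, had 27.5 and 14.7 against input, and Fga, fibrinogen alpha chain, had 24.2 and 12.6. Ubtd1 had 24.3 and 18, Hs6st1, a heparan sulphate sulphotransferase, 18.6 and 16.8, and Ptrh2, a mitochondrial peptidyl-tRNA hydrolase, 13.7 and 12.4. Over the 205 genes the median of the highest input fold was 6.17 in the PCB126 list and 3.18 in the Aroclor1260 list. These medians come from lists called separately, so they stand side by side without a ranking between compounds.

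Where both compounds had input-referenced peaks in a gene, at least 1 pair of peaks overlapped by 1 bp or more in all but 2 genes, and the listed peaks were mostly broader after PCB126. The overlap was often partial. With 50% of both spans required, 47% of the 506 Aroclor1260 input peaks (238) had a counterpart, against 89.7% with 1 bp. Of the 219 genes, 79 had more peaks after PCB126, 96 the same number and 44 fewer. The summed exonic width of the peaks was larger after PCB126 in 179 genes, equal in 19 and smaller in 21, with medians of 999 and 550 bp. Against IgG, 390 of 541 genes had the larger width after PCB126 and 119 the smaller. Identical spans were found for 61 of the 506 Aroclor1260 input peaks, or 12.1%.

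In 2 genes with input-referenced peaks after both compounds, no peaks overlapped. Id3, an inhibitor of helix-loop-helix transcription factors, had its PCB126 peak at chr4:136144968-136145118 (1.84) and its Aroclor1260 peak at chr4:136143994-136144143 (1.6). Against IgG, Id3 kept 2 Aroclor1260 peaks up to 4.8 and had none after PCB126. Pnkd had peaks at chr1:74352248-74352447 (2.17) and chr1:74353145-74353295 (1.14), whereas against IgG the strongest peaks of both compounds, 3.2 and 3.6, overlapped. Against IgG, 6 of 541 genes had no overlapping peaks. The 5 of them with a name, looked up after the count was known, were 1600014C10Rik, Syf2, Gm2a, Rpn1 and Cbr1. Rpn1, a subunit of the oligosaccharyltransferase, had its PCB126 peak at chr6:88102028-88102128 and its Aroclor1260 peak at chr6:88090057-88090156.

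The vehicle and combination lists, which had no part in defining the classes, were then read for the same genes. Of the 205 genes in all 4 lists, 194 (94.6%) also had a peak in both vehicle and combination mice with at least 1 reference. Of the 267 PCB126-only genes, 90 (33.7%, interval 28.3 to 39.6) had both, 107 (40.1%, 34.4 to 46.1) had a combination peak and no vehicle peak, and 10 had a vehicle peak and no combination peak. The other 60 (22.5%, 17.9 to 27.8) had neither, Pde4b, Ccnt2 and Fem1a among them. Thus 100 of the 267 (37.5%) were genes with a vehicle peak, with at least 1 reference, that the Aroclor1260 lists lacked, Tnfsf10, Lifr and Il1r1 among them. A vehicle peak was listed against input for 27 (10.1%), against IgG for 92 (34.5%) and with both references for 19 (7.12%). A combination peak was listed against input for 148 (55.4%) and against IgG for 182 (68.2%). For scale, of all 1512 identifiers 267 had a vehicle peak against input and 627 against IgG. A combination peak was listed for 750 and 1045 of the 1512, so a combination peak is common among all identifiers. Of the 6 Aroclor1260-only genes, 4 had both and 2 neither. The vehicle lists were close in length to the Aroclor1260 lists, with 620 and 2091 peaks, and the combination lists to the PCB126 lists, with 2284 and 3683. The part of list length in these shares was not tested.

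**Figure D4:**
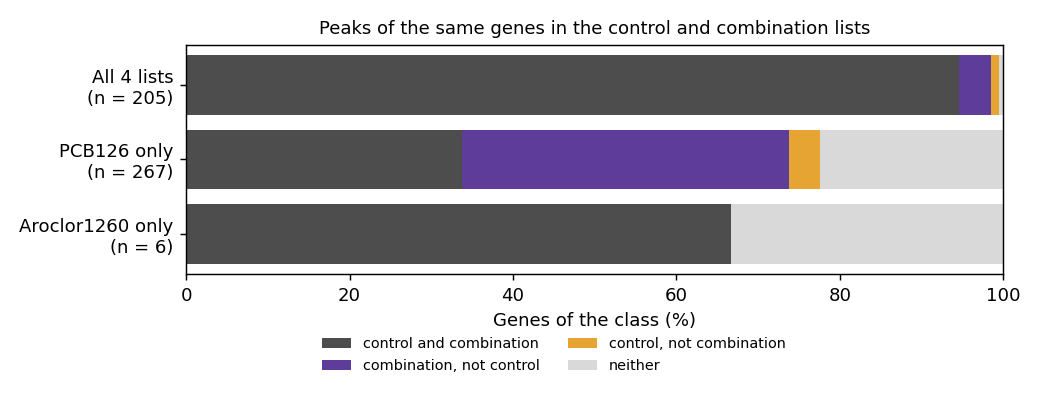
Share of genes (percent, horizontal axis) in each class of the comparison by whether the same gene also had a peak in the vehicle (control) or combination lists with at least 1 reference. A combination peak without a control peak is found in 40.1% of the 267 PCB126-only genes and 3.9% of the 205 genes in all 4 lists. Of all 1512 identifiers, 750 have a combination peak against input and 1045 against IgG.

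Along the gene, peaks of both compounds gathered toward the 3′ end. Position was taken as the middle of the peak in the RefSeq gene span, read along the strand of the identifier. Against input, 46.2% of shared Aroclor1260 peaks and 45.9% of PCB126-only peaks lay in the last 20% of the span. The 48 Aroclor1260-only peaks that could be placed differed in position, with 33.3% (21.7 to 47.5) in the first 20% of the span, where shared Aroclor1260 peaks had 12.1% (9.36 to 15.6). Against IgG the same share was 14.4% (11.5 to 18) for 457 Aroclor1260-only peaks and 10.9% (9.45 to 12.6) for shared ones, with overlapping intervals. Aroclor1260-only input peaks were also weak and narrow, with a median fold of 1.55 and 149 bp where shared Aroclor1260 peaks had 2.27 and 201 bp. The width is again tied to the overlap rule that defined sharing. Exon and UTR annotation was not used here, so no peak is assigned to a UTR.

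**Figure D5:**
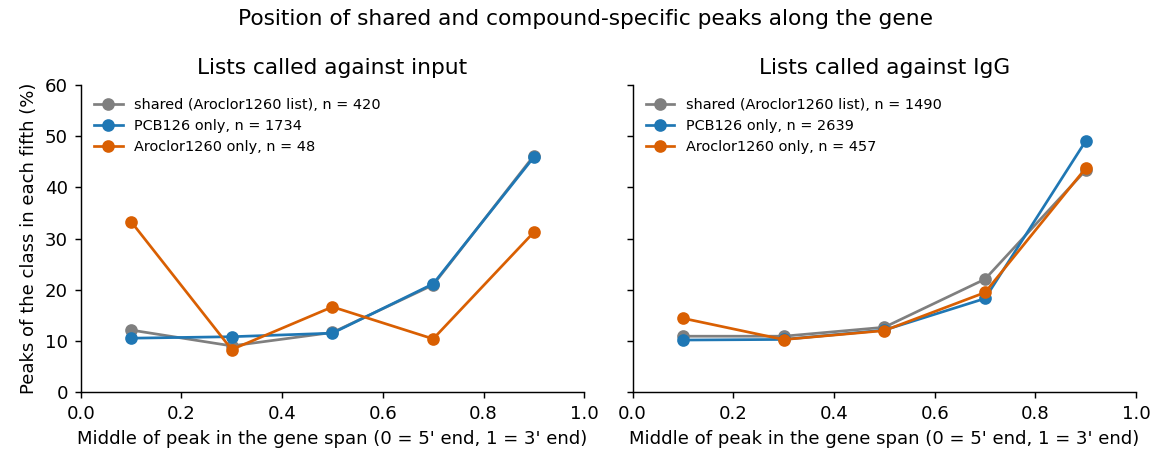
Share of peaks (percent, vertical axis) in each 20% of the gene span from the 5′ to the 3′ end (horizontal axis) for shared, PCB126-only and Aroclor1260-only peaks, by reference. Against input, 33.3% of the 48 placed Aroclor1260-only peaks lie in the first 20% of the span and 12.1% of the 420 placed shared ones; against IgG these are 14.4% and 10.9%.

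Gene groups were read from 26 lists of 554 genes, of which 141 had a peak in any of the 8 lists. Of these 141, 79 had a PCB126 and 44 an Aroclor1260 peak against input, and 119 and 89 against IgG, where 47.9%, 15.9%, 76.7% and 41.7% of all identifiers did. With both references, 18 (12.8%) were PCB126-only, near the 17.7% of all identifiers, and 3 were Aroclor1260-only. On lists of equal length, 10 of the 18 remained when peaks were ranked by fold, and 2, Jun and Ythdc1, when ranked by p-value.

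Few genes of the receptor pathways of these compounds had a peak. None of the 14 genes of the aryl hydrocarbon receptor list, which holds Cyp1a1, Cyp1a2, Cyp1b1, Ahrr and Tiparp among others, had a peak in these 4 lists. Peak lists carry no expression level, so this says nothing of induction. Of the PCB126 peaks, 94.6% and 95.5% lay on the plus strand, so absence says little for minus-strand genes. Of 20 targets of the constitutive androstane and pregnane X receptors, 6 had a peak in any of the 8 lists. Against input 3 had a PCB126 and 2 an Aroclor1260 peak, where 47.9% and 15.9% of all identifiers with a peak did. Cyp2c29, a drug-metabolising cytochrome P450 with close relatives that share sequence, had 2.21 and 1.58, with 3.33 and 2.84 against IgG. Por, the electron donor of all microsomal P450 enzymes, had 6 peaks up to 2.28 and 4 up to 1.66, with 7 and 6 peaks against IgG. Aldh1a1, a retinal dehydrogenase, had a PCB126 peak of 2.61 against input and none after Aroclor1260, but 5 and 4 peaks against IgG. Gadd45b, a stress-response gene, had 1 PCB126 peak of 2 against IgG alone.

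Of 26 genes of the m6A machinery, 3 had a peak in any of the 8 lists. All 3 had one after PCB126 with either reference, and 0 against input and 2 against IgG after Aroclor1260. Over all identifiers with a peak in any list, 47.9% and 15.9% had one against input, and 76.7% and 41.7% against IgG. Ythdc1, the nuclear reader, had 5 PCB126 peaks up to 6.57 against input and 8 up to 4.4 against IgG, with none after Aroclor1260. A second identifier over the Ythdc1 locus had 2 peaks in each PCB126 list, up to 2.57 and 4.2. That identifier also had 2 vehicle peaks against IgG, up to 3.6, and peaks in both combination lists. Zc3h13, a writer subunit, had 5 peaks up to 14.2 against input after PCB126 and none after Aroclor1260, with 7 and 6 peaks against IgG. Ythdf3, a cytoplasmic reader, had folds of 27.7 against input after PCB126, 42.9 against IgG, and 20.1 after Aroclor1260 against IgG alone. For the latter pair the difference was thus seen with input as reference and not with IgG.

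Hepatocyte transcription factors, picked after the counts of the 26 lists were seen, had the widest gap in genes against input. Of 24 genes, 9 had a peak in any of the 8 lists. Against input 9 had one after PCB126 and 2 after Aroclor1260, and against IgG 9 and 6. Of all identifiers with a peak in any list, 47.9% and 15.9% had one against input, and 76.7% and 41.7% against IgG. Cebpa and Cebpb, which maintain hepatocyte gene expression, had peaks in all 4 lists, with input folds of 9.6 and 26.8 after PCB126 and 2.54 and 2.64 after Aroclor1260. Against IgG they had 18.2 and 35.3 after PCB126 and 7.17 and 25.3 after Aroclor1260, so the wide input gap of Cebpb was not repeated. Cebpd had 8.12 and 10.1 after PCB126 and none after Aroclor1260, as did Onecut2 with 6 peaks in each PCB126 list, up to 7.31 and 9.4, and Zhx2, a repressor of fetal liver genes, with 2.93 and 9. These genes also had peaks in both combination lists. In vehicle-treated mice Onecut2 had 6 and 8 peaks, up to 5.79 and 12.6. Cebpd and Zhx2 had vehicle peaks against IgG alone, up to 4.3 and 2.8. Hnf4a, a master regulator of the hepatocyte, had 5 PCB126 peaks up to 5.68 against input and none after Aroclor1260, but 6 and 5 peaks against IgG. Rxra, the partner of many nuclear receptors, likewise had 7 and 0, then 8 and 8.

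Among 22 immediate early and AP-1 genes, 6 had a peak in any of the 8 lists. All 6 had a PCB126 peak and 5 an Aroclor1260 peak with either reference. Over all identifiers with a peak in any list the shares were 47.9% and 15.9% against input, and 76.7% and 41.7% against IgG. Jund, Egr1, Myc, Klf2 and Klf9 were in all 4 lists. Myc had 21.4 and 29.4 after PCB126 and 7.72 and 17.8 after Aroclor1260, and Klf9 had 15.5 and 16.6, then 11.6 and 9.57. Jun was the exception, with 4 peaks in each PCB126 list, up to 6 and 7.6, and none after Aroclor1260. In signalling lists, Hexim1, the inhibitor of P-TEFb, was in all 4 lists with 17.1 and 54.2 after PCB126 and 9.13 and 14.3 after Aroclor1260. Aff1, a scaffold of the super elongation complex, had 7 and 8 PCB126 peaks up to 4 and 8.6 and none after Aroclor1260. Tnrc6c, which binds Argonaute and carries microRNA silencing, had 10 and 9 PCB126 peaks up to 7.35 and 15.8 and none after Aroclor1260.

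Metabolic lists held shared and PCB126-only members and 1 Aroclor1260-only gene, Elovl5. Ppara, the fatty acid-sensing receptor, was in all 4 lists with 14.4 and 26.6 after PCB126 and 9.63 and 12.1 after Aroclor1260. Pparg, a receptor that promotes lipid storage, had 3 and 4 PCB126 peaks up to 1.86 and 4.4 and none after Aroclor1260, as did Vnn1, a pantetheinase induced in fasting, with up to 3.89 and 4.18. Vnn1 also had vehicle peaks against IgG alone, up to 3.2, and peaks in both combination lists. In lipogenesis, 6 of 32 genes had a peak in any of the 8 lists. Of these, 2 had one after each compound against input, and 5 and 6 against IgG. Over all identifiers with a peak in any list the shares were 47.9% and 15.9%, then 76.7% and 41.7%. Scd1, the desaturase that makes oleate, had 9 and 7 peaks against IgG and none against input. G6pc, glucose-6-phosphatase, was in all 4 lists with 4.46 and 7.38, then 2.11 and 4.91. Foxo1, a transcription factor restrained by insulin, had 11.1 and 25.1, then 9.73 and 11.

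Plasma protein genes were the largest group, and 22 of 39 had a peak in any of the 8 lists. Of these, 10 had a PCB126 and 7 an Aroclor1260 peak against input, and 18 and 17 against IgG. Over all identifiers with a peak in any list the shares were 47.9% and 15.9%, then 76.7% and 41.7%. Crp, C-reactive protein, had 22.8 and 25.7 after PCB126 and 8.96 and 13.7 after Aroclor1260, and Hp, haptoglobin, had 6.79 and 5.55, then 2.3 and 4.6. No plasma protein gene was exclusive to a compound with both references. Of 23 lipoprotein genes, 8 had a peak in any of the 8 lists, 6 and 3 against input and 7 and 8 against IgG. Apoa1, Apoa5 and Apoe were in all 4 lists. Apoa5, a regulator of plasma triglyceride, had 16 and 19.4, then 9.08 and 9.26. Cyp27a1, of bile acid synthesis, had 7 Aroclor1260 peaks up to 6 against IgG and no peak in the other 3 lists. Mt1, a metallothionein, had 1 and 3 PCB126 peaks up to 1.25 and 2.15 and none after Aroclor1260. Secisbp2, needed for selenoprotein synthesis, had 4 and 3 up to 2.6 and 3.6 and none after Aroclor1260, and Atf4, of the unfolded protein response, had 2 and 2 up to 2.38 and 3.4 and none after Aroclor1260. Mt1 and Atf4 also had vehicle peaks against IgG alone, up to 1.57 and 2.35, and combination peaks against IgG, up to 2.8 and 2.87.

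Few markers of other liver cells had a peak. Of 14 Kupffer cell markers only Cd5l had a peak, after Aroclor1260 against IgG. Of 14 endothelial markers Bmp2 had peaks in all 4 lists and Cdh5 in both IgG-referenced lists. Dcn, a stellate cell gene, and Spp1, a cholangiocyte gene, had peaks after PCB126 against IgG alone, and 0 of 12 lymphocyte markers had one. Of 16 hepatocyte markers, 7 had a peak in any of the 8 lists, 3 after each compound against input and 5 and 4 against IgG. For Cyp2f2 the Aroclor1260 input peak, 1.45, belonged to a minus-strand identifier over the locus. The plus-strand identifier had none after Aroclor1260. In bulk liver, fewer cells of a type, less RNA per cell and an unmethylated transcript cannot be told apart by an absent peak. Peak lists carry no expression level, so these counts say nothing of the cells present. On the mitochondrial chromosome, ND4 had a peak with both compounds and both references, and COX1, ND6 and mt-Rnr2 had one in both PCB126 lists and in neither Aroclor1260 list. COX1 also had a peak in both vehicle lists, and COX1, ND6 and mt-Rnr2 had one in both combination lists.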

How the data were processed

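Liver m6A libraries were set against input or IgG libraries of the same group, and the deposited files were 1 peak list per group and reference, titled as MeTPeak output. The submitters' processing notes name BWA 0.7.17 and mm10, beside Trimmomatic, FastQC 0.10.1 and bcl2fastq 2.20.0.422. The caller's version, settings and annotation were not given in the sources used here. Per the file headers each peak carried a fold enrichment, a linear ratio computed by the authors, a p-value from the authors, and log10 values of both the p-value and the false discovery rate, which reached at most 0.049. Folds were described within a list, and folds of different lists stand side by side without a test between them. Total read counts were not used here, so depth is unknown.

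Coordinates are those of mm10, counted from 1. Of the 1512 identifiers, 1395 were named by position from the RefSeq table of GRCm38.p6, as the gene holding at least 80% of the identifier's exonic peak bases, or the only protein-coding one of several. A name therefore states the place, and minus-strand identifiers over a named gene are said to be such. In the counts of the gene lists, any identifier with a gene's name counted for that gene. Overlaps were computed in Python 3.11.15 with pandas 2.3.3, and Wilson intervals with scipy 1.17.1. The overlap code was tested on simulated lists. Input-referenced lists were the main ones. Alternatives were IgG, a false discovery rate of at most 0.01, a fold of at least 2, reciprocal overlap of 50%, overlap of exonic blocks, plus strand only, joined loci and lists of equal length.

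Genes named are from the 15 PCB126-only genes with the highest input fold (1 is not reported here), all Aroclor1260-only genes (both references), the 10 in all 4 lists with the highest lower input fold, genes whose peaks did not overlap, and members of the gene lists in an exclusive class or in the receptor and m6A lists. Others were named after their values were seen. The members, gene lists and rules were chosen with earlier results of these data known.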

Additional observations from a re-analysis of the deposited data

How the results depend on the processing

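The length of the lists was the choice that moved most values, and the shortening of the PCB126 list to that of Aroclor1260 itself removes PCB126 peaks and adds Aroclor1260-only genes. The share of Aroclor1260 peaks found after PCB126, 89.7% against input, was 77.2% with IgG, 95.1% with a fold of at least 2 and 47% with reciprocal overlap. With equal length by p-value it was 30.6% (IgG 50%), and by fold 52.6% (IgG 52.8%). The share of PCB126 peaks found after Aroclor1260, 16.7%, was 33.7% with IgG, 11% with reciprocal overlap and 30.2% by gene. With equal length by p-value it was 25.7% (IgG 42.1%), and by fold 37% (IgG 40.3%). Genes with both compounds, 219, numbered 541 with IgG, 88 with equal length by p-value (IgG 384) and 440 by fold with IgG. PCB126-only genes, 505, numbered 140 by p-value (IgG 326) and 249 by fold. Aroclor1260-only genes, 21, numbered 90 with IgG, 8 with a fold of at least 2, 152 by p-value (IgG 247) and 84 by fold (IgG 191). Genes in both lists without overlapping peaks, 2, numbered 6 with IgG, 1 by p-value (IgG 8), 7 by fold with IgG and 4 with joined loci. The counts over both references, and equal length by fold, were added after seeing the data. The 267 PCB126-only genes fell to 63 by p-value and 124 by fold, the 6 Aroclor1260-only genes became 62 and 31 (1 when folds under 2 were dropped), and the 205 genes in all 4 lists fell to 82 by p-value. Of the 77 values of these results under an alternative, 39 moved by less than their counting interval or by at most 1.5 times. The order of the exclusive gene counts against input, 505 and 21, turned to 140 and 152 with equal length by p-value, where the PCB126 list held 228 genes and the Aroclor1260 list 240. Among shares of peak position and of class status, 5 of 12 moved with IgG. Leaving out an animal was not possible, since each list describes a whole group. No paired analysis was possible because the lists hold no value per animal. Read depth was unknown for every list, and its part in an absent peak was not tested.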
